A study of Mus musculus with 74 samples.

Results

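A set of 10 genes of pan-endothelial identity, chosen by symbol, were followed from primary mammary tumors (PT) to lung metastases (Lung met) in 5 mouse comparisons. They were Cdh5, Pecam1, Cldn5, Esam, Emcn, Plvap, Tie1, Eng, Robo4 and Epas1, and all 10 had a mean in both tissues in each of the 5 tables used, among 18208 genes with both means in Her2, 19320 in C3Tag, 17270 in BALB, 17351 in SEAGN and 17829 in the PyMT-F1 table deposited as AKR. Bulk RNA-seq was performed on PT and Lung met tissue of transgene-positive female mice, to ask how oncogenic driver and genetic background shape gene expression in metastases. The oncogenic driver mice were of the FVB background and carried MMTV-Her2, in which the mouse mammary tumor virus promoter drives the rat neu (ErbB2) gene, or C3(1)-TAg (C3Tag), in which SV40 T antigen is the oncogene. The PyMT-F1 mice carried MMTV-PyMT, the polyoma middle T antigen under the same viral promoter, and were F1 progeny of FVB PyMT males and BALB/cJ (BALB), Sea/GnJ (SEAGN) or AKR/J (AKR) females. Each group held 6 samples, or 7 in the case of C3Tag, named for the animal they came from.

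All groups carried a mammary oncogene transgene, and all tumors of 1 animal were combined into its PT sample. In the Her2 and C3Tag models, tumors of animals with single lesions were resected while small. Those animals were then aged further, so that their Lung met tissue was collected later than their PT. Metastatic nodules were taken whole, with no separation of tumor cells from vessels or lung, and normal lung was not analysed here. The strain behind the table deposited as AKR is not settled, because ratios like those of its group means are also listed by the study under the cross to C57BL/6J. It is therefore called the comparison deposited as AKR below. The tables hold 1 mean per tissue and no value for a single sample, so no difference between PT and Lung met was tested, no error can be given, and every statement describes the authors' group means.

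Endothelial cells line blood and lymphatic vessels and share a core set of genes, whichever organ they come from. VE-cadherin (Cdh5), PECAM-1 (Pecam1), claudin-5 (Cldn5) and ESAM hold neighboring endothelial cells together, PLVAP forms the diaphragms of fenestrae and caveolae, and endomucin (Emcn) is a sialomucin of the luminal surface. Tie1, endoglin (Eng) and Robo4 are receptors that act in angiopoietin, TGF-beta family and guidance signaling, and Epas1 encodes the hypoxia-inducible factor HIF-2alpha. The lung is among the organs richest in capillary endothelium, and Epas1 is also made by alveolar epithelial cells.

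The genes lie on 8 chromosomes. In GENCODE M21 on GRCm38, Robo4 (chr9:37401897-37415115, plus strand) and Esam (chr9:37528078-37538319, plus strand) are the only close neighbors, with 113 kb between them, and Cdh5 (chr8:104101625-104144511) and Plvap (chr8:71497765-71511752) share chromosome 8. Emcn lies at chr3:137341067-137432185 and Cldn5 at chr16:18776847-18778262, both on the plus strand. Cldn5 has the shortest exonic sequence of the 10, 1.42 kb, and Pecam1 the longest, 6.23 kb. On the same strand, Epas1 overlaps AC096777.1, and Eng overlaps Mir1954, Gm47291 and Gm26236, so that reads there are uncertain. On the opposite strand, Cdh5 overlaps Gm29682, Plvap overlaps Gtpbp3 and Eng overlaps Fpgs, and whether the counting used strand is not given in the sources used here.

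Promoter sequence is shown for the 3 members that departed most from the rest, Cldn5 upward and Emcn and Robo4 downward. The stretches are RefSeq sequence of GRCm38.p6, read 5′ to 3′ on the plus strand and ended before the first base of the GENCODE gene. They are chr16:18776597-18776846 for Cldn5, chr3:137340828-137341066 for Emcn and chr9:37401722-37401896 for Robo4. Capitals mark GGAAG, the core letters bound by many ETS family factors, or its reverse complement CTTCC.
Cldn5: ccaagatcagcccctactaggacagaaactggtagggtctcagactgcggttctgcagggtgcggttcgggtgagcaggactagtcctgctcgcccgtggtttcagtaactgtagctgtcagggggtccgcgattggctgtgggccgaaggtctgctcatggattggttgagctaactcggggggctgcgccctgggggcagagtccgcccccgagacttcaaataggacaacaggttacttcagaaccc
Emcn: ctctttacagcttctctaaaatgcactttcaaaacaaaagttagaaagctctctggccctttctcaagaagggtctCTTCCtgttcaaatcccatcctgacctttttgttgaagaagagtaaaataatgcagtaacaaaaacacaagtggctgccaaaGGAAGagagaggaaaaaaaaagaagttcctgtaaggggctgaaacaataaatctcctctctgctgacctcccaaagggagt
Robo4: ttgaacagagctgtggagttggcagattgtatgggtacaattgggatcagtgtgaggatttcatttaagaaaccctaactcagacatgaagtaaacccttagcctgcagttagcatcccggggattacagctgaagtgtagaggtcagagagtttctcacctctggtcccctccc
The promoter table held 5 of the 10 members (Cldn5, Emcn, Eng, Robo4 and Tie1). In the 250 bases before the RefSeq start, GGAAG or CTTCC was found 6 times for Tie1, 2 times each for Emcn, Eng and Robo4, and 0 times for Cldn5. Both Robo4 matches lie past the stretch printed. A match was present in 64.1% of all 32851 windows of this length, so that 4 of 5 members with a match is a description and sets the members apart from nothing.

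All 10 genes had a higher mean in Lung met than in PT in Her2, C3Tag and the comparison deposited as AKR, and 8 of 10 did in BALB and in SEAGN, where Emcn and Robo4 were lower. Expressed as the log2 of the Lung met mean over the PT mean, the members' median was 0.55 in Her2, 1.35 in C3Tag, 0.50 in BALB, 0.59 in SEAGN and 1.73 in the comparison deposited as AKR, that is a median fold of 1.47, 2.55, 1.41, 1.503 and 3.31. The median over all genes was near 0 in each table, between -0.00 and 0.03. Of all genes, 49.7% in Her2, 51.2% in C3Tag, 55.3% in BALB, 52.6% in SEAGN and 50.8% in the comparison deposited as AKR had a higher mean in Lung met. At least 2-fold higher in Lung met were 1 of 10 members in Her2, 8 in C3Tag, 1 in BALB, 2 in SEAGN and 9 in the comparison deposited as AKR. Among all genes that threshold was passed by 2.38% in Her2, 7.42% in C3Tag, 2.26% in BALB, 2.86% in SEAGN and 7.31% in the comparison deposited as AKR. In bulk tissue, a difference in the number of endothelial cells and a difference in RNA per endothelial cell cannot be told apart.

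**Figure D1:**
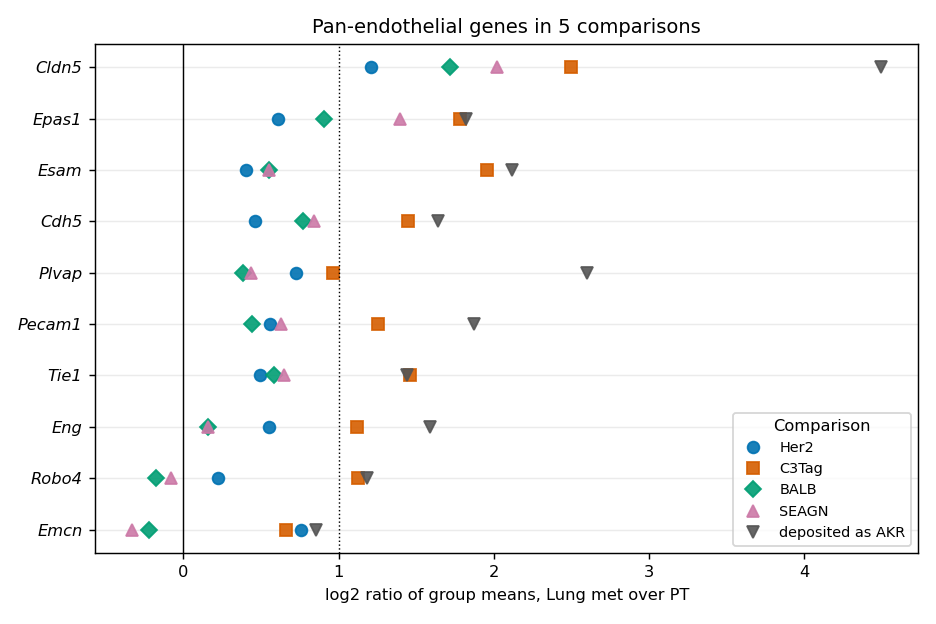
Log2 ratio of the authors' group means, Lung met over PT, for the 10 genes (rows, ordered by their mean over the 5 comparisons), with 1 symbol per comparison; the solid line is 0 and the dotted line a 2-fold higher mean. Cldn5 lies farthest right in all 5 comparisons, and Emcn and Robo4 lie left of 0 in BALB and SEAGN.

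Among the junction and adhesion proteins, Cldn5 had the highest ratio of all 10 members in all 5 comparisons. Its mean normalized count went from 68.9 in PT to 159 in Lung met in Her2, from 97.1 to 547 in C3Tag, from 22.3 to 73.3 in BALB, from 18.0 to 73.1 in SEAGN and from 39.5 to 890.1 in the comparison deposited as AKR. These are 2.31-fold, 5.63-fold, 3.28-fold, 4.05-fold and 22.5-fold higher means, and Cldn5 was the only member past 2-fold in every table. Claudin-5 is the tight junction protein that seals endothelial contacts. Set against Cdh5, the Cldn5 mean was 0.088 of the Cdh5 mean in PT and 0.148 in Lung met in Her2, and 0.086 and 0.623 in the comparison deposited as AKR. In C3Tag this ratio was 2.06 times as high in Lung met as in PT, in BALB 1.93 times and in SEAGN 2.26 times.

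Cdh5, the adherens junction cadherin of endothelium, went from 784 to 1078 in Her2, from 842 to 2301 in C3Tag, from 318 to 541 in BALB, from 359 to 643 in SEAGN and from 459 to 1429 in the comparison deposited as AKR. Pecam1, an adhesion molecule of endothelial contacts that platelets and leukocytes also carry, went from 1184 to 1742 in Her2, from 755 to 1803 in C3Tag, from 256 to 348 in BALB, from 279 to 431 in SEAGN and from 869.9 to 3179 in the comparison deposited as AKR. Both were thus higher in Lung met in all 5 comparisons, with log2 ratios from 0.46 to 1.64 for Cdh5 and from 0.44 to 1.87 for Pecam1. Esam, an immunoglobulin-like protein of tight junctions that is also found on platelets, went from 385 to 508 in Her2, from 175 to 679 in C3Tag, from 60.3 to 88.3 in BALB, from 70.1 to 103 in SEAGN and from 229.9 to 999 in the comparison deposited as AKR. Esam had the ninth place among the members in Her2, with a log2 ratio of 0.40, and the second in C3Tag, with 1.96.

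Of the surface sialomucin and the diaphragm protein, Plvap was higher in Lung met in all 5 comparisons and Emcn in 3. Plvap went from 721 to 1194 in Her2, from 763 to 1486 in C3Tag, from 222 to 289 in BALB, from 274 to 370.5 in SEAGN and from 374 to 2266 in the comparison deposited as AKR. Its log2 ratio spanned 0.38 in BALB to 2.60 in the comparison deposited as AKR, the widest span after that of Cldn5. Emcn went from 290.3 to 492 in Her2, from 177 to 280.3 in C3Tag and from 317 to 574 in the comparison deposited as AKR, but from 71.6 to 61.3 in BALB and from 70.8 to 56.4 in SEAGN. Emcn was the only member that reached 2-fold in no table, and its log2 ratios were 0.76, 0.66 and 0.86 in the first 3 of these and -0.22 and -0.33 in BALB and SEAGN.

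Among the receptors, Tie1 and Eng were higher in Lung met in all 5 comparisons and Robo4 in 3. Tie1, an orphan tyrosine kinase that modulates the angiopoietin receptor Tek, went from 294 to 413 in Her2, from 193 to 531 in C3Tag, from 68.6 to 103 in BALB, from 68.9 to 108 in SEAGN and from 179 to 486 in the comparison deposited as AKR. Eng, the TGF-beta family coreceptor of endothelium, went from 428 to 627 in Her2, from 532 to 1155 in C3Tag, from 187 to 209 in BALB, from 228 to 254 in SEAGN and from 315 to 947 in the comparison deposited as AKR. The Eng means in BALB and SEAGN were close together in both tissues, with a log2 ratio of 0.16 in each. Robo4, a roundabout receptor that limits vessel leak, went from 257 to 299 in Her2, from 169 to 369 in C3Tag and from 111 to 253 in the comparison deposited as AKR, but from 58.5 to 51.7 in BALB and from 61.6 to 58.2 in SEAGN. Its log2 ratio was 0.22 in Her2, the lowest of the 10 there, 1.13 in C3Tag, -0.18 in BALB, -0.08 in SEAGN and 1.18 in the comparison deposited as AKR.

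Epas1, the only transcription factor among the members, was higher in Lung met in all 5 comparisons and above the median of the other 9 members in each. In Her2 it was above by only 0.05. Against the median of the other pan-endothelial genes described further on, Epas1 in Her2 lay at -0.25. Its mean went from 988 to 1505 in Her2, from 1765 to 6066 in C3Tag, from 746 to 1400.3 in BALB, from 859 to 2259 in SEAGN and from 1029 to 3632 in the comparison deposited as AKR. Between BALB and SEAGN, the 2 tables whose members otherwise lay closest, Epas1 was the member that differed most, with log2 ratios of 0.91 and 1.39.

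**Figure D2:**
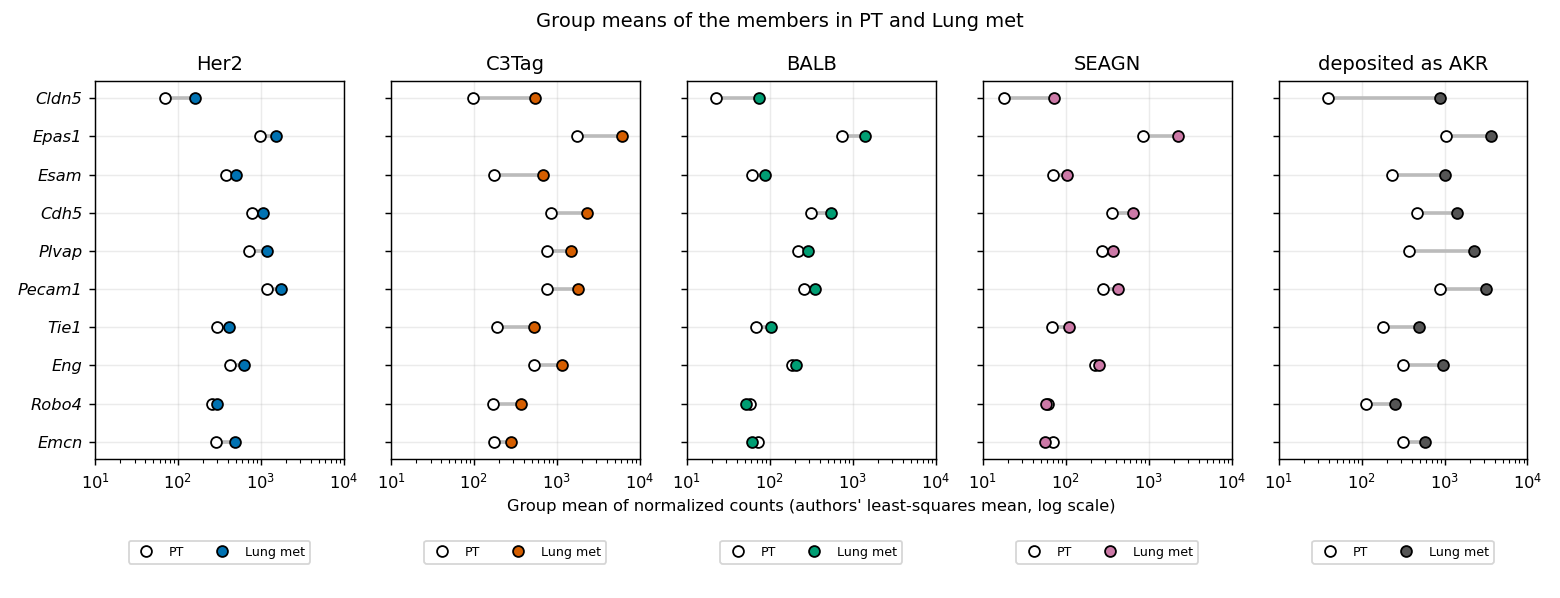
Authors' group mean of normalized counts (horizontal, log scale) of each member (rows) in PT (open circles) and Lung met (filled circles), 1 panel per comparison. The circles of Emcn and Robo4 nearly coincide in BALB and SEAGN, and those of Cldn5 in the comparison deposited as AKR, 39.5 and 890.1, lie farthest apart.

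Emcn and Robo4 lay below the median of the other 9 members in C3Tag, BALB, SEAGN and the comparison deposited as AKR, and Robo4 also did in Her2. In C3Tag Robo4 ranked 7 of the 10, above Eng, Plvap and Emcn. The departure of a member was its log2 ratio minus the median of the other 9. For Emcn it was 0.21 in Her2, -0.79 in C3Tag, -0.77 in BALB, -0.95 in SEAGN and -0.96 in the comparison deposited as AKR. Emcn was therefore the lowest of the 10 in 4 comparisons and the second highest, after Cldn5, in Her2. That upward value depends on the reference, since Emcn in Her2 lay at -0.10 against the median of the 28 other pan-endothelial genes described further on, and so below in all 5 comparisons. For Robo4 the departure was -0.34, -0.32, -0.73, -0.71 and -0.64 in the same order, below 0 in all 5. Eng, too, lay below the median of the other 9 in all 5 comparisons, with departures from -0.005 in Her2, almost at that median, to -0.47 in SEAGN. Its rank was between 6 and 8 of the 10. Cldn5 departed upward in all 5, from 0.66 in Her2 to 2.86 in the comparison deposited as AKR. The reading is of group means only, and whether these departures exceed the spread between animals was not tested.

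**Figure D3:**
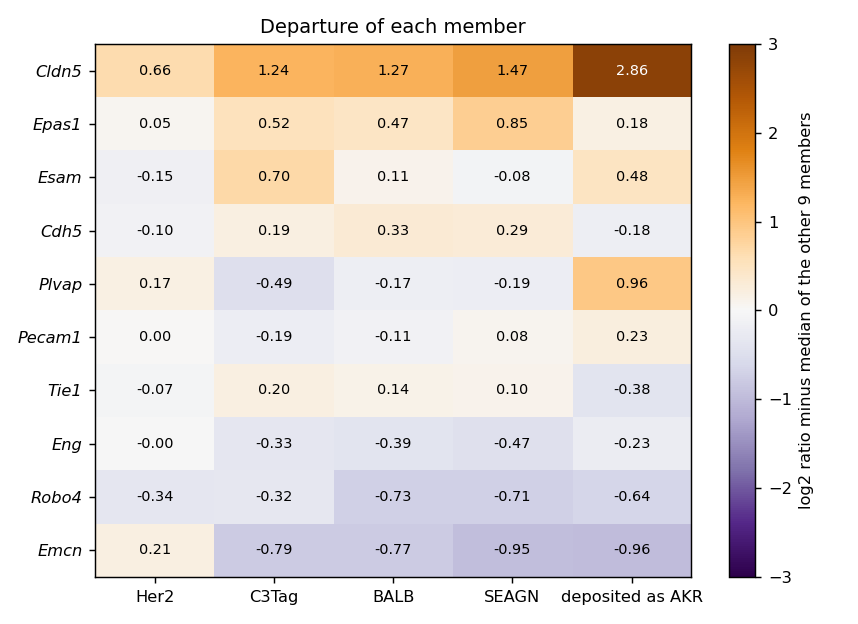
Departure of each member (rows) in each comparison (columns), the log2 ratio minus the median of the other 9 members, printed in each cell and colored from purple (below) to orange (above). The Cldn5 row is orange in all 5 comparisons, and the Emcn row is purple in 4 and reaches 0.21 in Her2.

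Members were also set against each other within a tissue, as ratios of their group means. The ratio of the Emcn mean to the Pecam1 mean was 0.245 in PT and 0.282 in Lung met in Her2. It was 0.235 and 0.155 in C3Tag, 0.280 and 0.176 in BALB, 0.254 and 0.131 in SEAGN, and 0.364 and 0.181 in the comparison deposited as AKR. In 4 of the 5 comparisons Emcn was therefore less abundant relative to Pecam1 in Lung met, and in Her2 it was more abundant. The ratio of Robo4 to its chromosomal neighbor Esam was lower in Lung met in all 5 comparisons, at 0.882 times its value in PT in Her2, 0.562 in C3Tag, 0.604 in BALB, 0.646 in SEAGN and 0.522 in the comparison deposited as AKR.

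The members were not spread alike in the 5 tables. The distance from the lowest to the highest log2 ratio was 0.99 in Her2, 1.83 in C3Tag, 1.94 in BALB, 2.35 in SEAGN and 3.64 in the comparison deposited as AKR. Between BALB and SEAGN the median absolute difference of a member's log2 ratio was 0.085, beside 0.158 over the 13156 genes with a mean of at least 10 in both. Between C3Tag and the comparison deposited as AKR it was 0.192, beside 0.285 over 15922 genes, with Cldn5 the farthest apart at 2.00. In every other pair of tables the members differed more than genes at large. The median absolute difference there ran from 0.327, beside 0.166 over all genes compared, between Her2 and BALB. It reached 1.393, beside 0.240, between BALB and the comparison deposited as AKR. Every member had a higher ratio in C3Tag than in BALB and than in SEAGN, and in the comparison deposited as AKR than in Her2, BALB and SEAGN. The BALB and SEAGN tables carry identifiers of the BALB/cJ gene annotation and the other 3 those of the reference mouse annotation. Her2 and C3Tag further differ from the PyMT-F1 crosses in oncogene, in resection of tumors and in how the authors obtained the means. Where 2 tables differ in more than 1 of strain, annotation, processing, oncogene and resection, these cannot be told apart. Of these, BALB and SEAGN differ in strain and share oncogene, identifiers and the way the means were obtained. Her2 and C3Tag differ in oncogene and share background, identifiers, resection and the way the means were obtained. No cause of a difference between tables was tested.

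**Figure D4:**
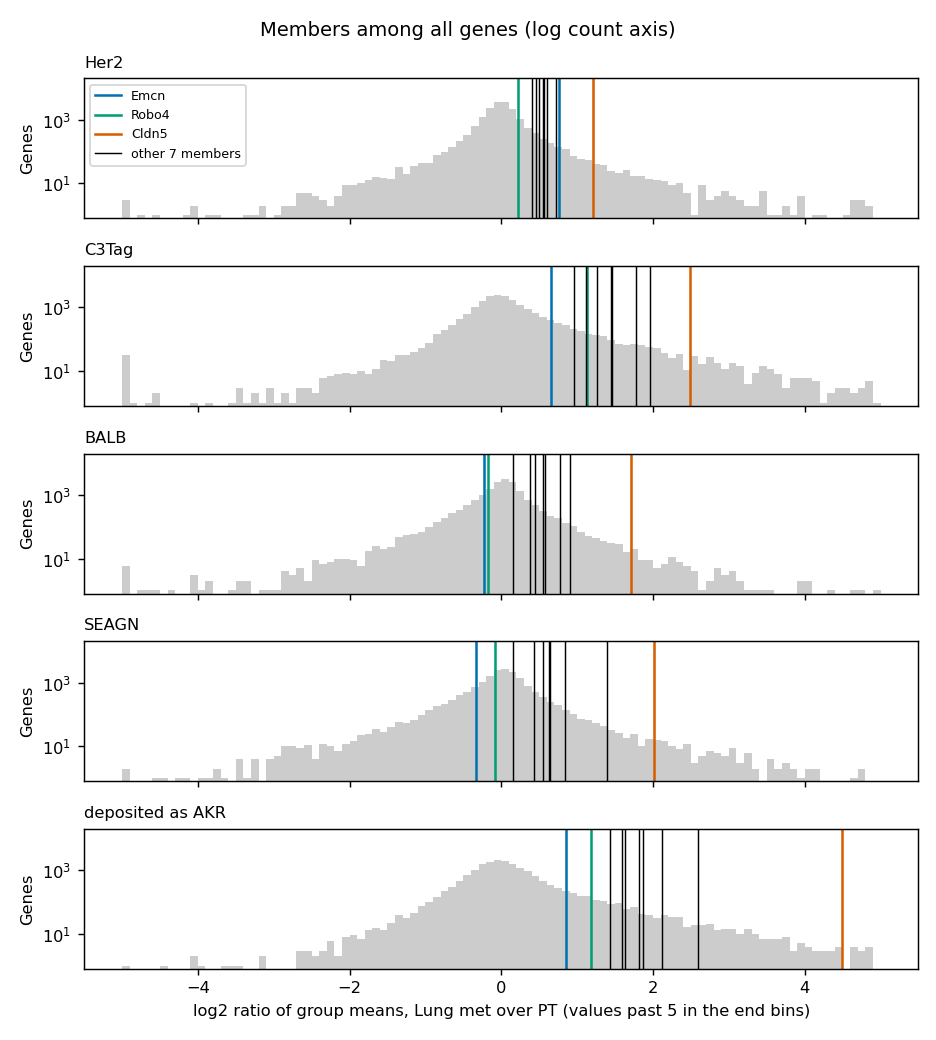
Histograms of the log2 ratio, Lung met over PT, of all genes (horizontal, bins of 0.1; vertical, number of genes on a log scale), 1 panel per comparison, with each member as a vertical line. Emcn (blue) and Robo4 (green) lie left of the peak's center in BALB and SEAGN, and Cldn5 (orange) is the rightmost member in every panel.

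Placed among all genes of a table, 9 of 10 members in Her2 had a higher ratio than 91.2% of genes or more, and Robo4 than 83.8%. In C3Tag the lowest member, Emcn, was above 87.6% of genes, and in the comparison deposited as AKR above 91.1%. In BALB Emcn was above 19.4% and Robo4 above 22.6% of genes, and in SEAGN they were above 16.3% and 35.7%. Cldn5 was above 98.3% of genes in Her2 and above 99.9% in the comparison deposited as AKR.

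Levels of different genes were compared per kb of exonic sequence, in the 3 tables with reference mouse identifiers, of which 99.7% matched the annotation in each. Plvap held the first or the second place per kb in all 6 group means, and Epas1 a place between the first and the fourth. Plvap was highest in both tissues in Her2, with 363 per kb in PT and 601 in Lung met, and Epas1 in C3Tag Lung met, with 1085 per kb. Robo4 held one of the last 2 places in all 6 group means, from 21.0 to 69.6 per kb. Cldn5 changed place most, from the ninth in PT, at 27.9 per kb, to the third in Lung met, at 629 per kb, in the comparison deposited as AKR. Emcn, from 32.8 to 106 per kb, never stood above the seventh place. The spread between animals around these levels is unknown, so neighbors in the order cannot be called different. The scale of the normalization is not given either. If the means were already scaled by gene length, dividing by exonic length would correct for it again and could change the order.

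Other genes of pan-endothelial identity were mostly higher in Lung met as well, with exceptions of their own. Of 28 such genes, 8 were at least 2-fold higher in Lung met in Her2, 18 in C3Tag, 5 in BALB, 7 in SEAGN and 25 in the comparison deposited as AKR, and their median log2 ratios were 0.86, 1.32, 0.69, 0.68 and 1.68. The highest by the mean over the tables were Vwf, the von Willebrand factor, with log2 ratios of 3.23, 3.04, 2.07, 1.62 and 2.50, and Gata2, an endothelial and blood transcription factor, with 1.31, 1.88, 2.77, 3.06 and 1.53. The lowest were Mmrn2, an endothelial matrix protein, with -0.22, -0.16, -0.73, -0.66 and 0.15, and Nos3, the endothelial nitric oxide synthase, with 0.41, 0.89, -0.54, -0.67 and 0.85. Across the 5 comparisons 24 of the 28 genes had a higher mean in Lung met in every table, as did 8 of the 10 members. The other 4 of the 28 were Mmrn2, Nos3, Sox18 and Fli1. In a single table, between 49.7% of all genes in Her2 and 55.3% in BALB were higher in Lung met. The share of all genes higher in every table was not counted. In BALB 2 of the 28 had a lower ratio than Emcn and in SEAGN 2, so that Emcn and Robo4 are not alone in their position.

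By list medians, endothelial genes typical of lung capillaries lay above the members and those of tumor vessels below them. By summed level, Lung met over PT, the lung capillary list was at 1.12 in Her2, 1.38 in C3Tag and 1.26 in BALB. It was at 1.70 in SEAGN and 1.86 in the comparison deposited as AKR. The members' summed level was at 1.48, 2.78, 1.57, 1.90 and 3.73 in the same order, so by sums the lung capillary list lay below the members in every table. Of 18 lung capillary genes, 16 or 17 had values in each table, and their median log2 ratio was 0.90 in Her2, 1.45 in C3Tag, 0.97 in BALB, 1.17 in SEAGN and 2.21 in the comparison deposited as AKR, with 6, 10, 8, 10 and 14 at least 2-fold higher. The highest were Foxf1, a transcription factor of lung capillaries and mesenchyme, between 3.95 and 4.71 in the 4 tables that list it, and Tmem100, a BMP-dependent endothelial protein, between 1.67 and 4.41 in 4. The lowest were Ednrb, the endothelin B receptor, at -0.44, -0.56, -1.71, -2.15 and 0.05, and Kit, between -0.23 and 0.51. Of 12 genes of tumor angiogenic endothelium, 0 in Her2, 2 in C3Tag, 0 in BALB, 0 in SEAGN and 3 in the comparison deposited as AKR were at least 2-fold higher, and the medians were 0.10, 0.26, 0.05, -0.45 and 0.71. Apln, the ligand of the apelin receptor and a tip cell gene, was the highest of them, between 0.44 and 1.29, followed by Dll4, a Notch ligand, between 0.11 and 1.15. Nid2, a basement membrane protein, and Kcne3, a potassium channel subunit, were the lowest by their mean, with Nid2 between -1.67 in SEAGN and 0.11 in C3Tag, and Kcne3 between -1.75 in SEAGN and 0.81 in the comparison deposited as AKR.

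Direct partners of the members had medians nearer to 0. Of 28 ligands, co-receptors, junction adaptors and targets, 4 were at least 2-fold higher in Her2, 4 in C3Tag, 2 in BALB, 2 in SEAGN and 8 in the comparison deposited as AKR, with medians of 0.11, 0.21, 0.29, 0.05 and 0.12. Ptprb, the phosphatase that binds VE-cadherin and Tek, was the highest, between 1.17 and 2.39, followed by Id1, a target of BMP signaling through Eng and Acvrl1, between 0.74 and 2.06. Ptprb is also among the other pan-endothelial genes above, so the lists are not fully separate. Slit3, a roundabout ligand, between -0.87 and -0.29 in 3 tables, and Angpt2, a ligand of Tek, between -0.84 and 1.03, were the lowest.

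Most markers of lung epithelium were higher in Lung met in the same comparisons, and their part in the members' values was not tested. Of 8 alveolar type 1 genes, 7 had values and 5 to 7 were at least 2-fold higher, with medians from 2.82 to 3.86. The summed level of the list ran from 2364 to 58048 in PT and from 3142 to 57208 in Lung met, and Lung met over PT it was 0.986 in Her2 and 0.864 in BALB, where Aqp5, a water channel, was lower, and 4.83, 2.26 and 2.13 in C3Tag, SEAGN and the comparison deposited as AKR. The highest by their mean were Ager and Clic5, a chloride channel protein, with log2 ratios of Clic5 between 3.73 and 5.53, and the lowest were Aqp5, between -0.66 and 1.69, and Pdpn, between 0.33 and 1.496. Ager, the defining type 1 marker, went from 62.5 to 1847 in Her2, from 80.4 to 2166 in C3Tag, from 17.6 to 290.3 in BALB, from 16.7 to 579.8 in SEAGN and from 214 to 9532 in the comparison deposited as AKR. Of 8 alveolar type 2 genes, 5 had values and 4 or 5 were at least 2-fold higher, with medians from 1.26 to 6.29, and their sum ran from 1979 to 8731 in PT and from 5732 to 40756 in Lung met. Lamp3, a lamellar body protein, between 4.62 and 7.84, and Sftpd, surfactant protein D, between 1.21 and 6.29, were the highest. Abca3, a lipid transporter, between -0.21 and 1.88, and Slc34a2, a phosphate transporter, between 1.26 and 7.96, were the lowest by their mean over the tables. In C3Tag, however, Slc34a2 was the highest of the list, at 7.96. No gene with both means in these tables was at 0 in either tissue, the alveolar genes included.

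Other cell types differed in both directions, and their part in the members' values was not tested either. Of 8 fibroblast genes, 7, 2, 6, 7 and 7 were at least 2-fold lower in Lung met in Her2, C3Tag, BALB, SEAGN and the comparison deposited as AKR, with medians of -1.49, -0.34, -1.75, -2.37 and -1.41, and their sum ran from 11532 to 35846 in PT and from 3181 to 32661 in Lung met. The share of all genes at least 2-fold lower was not counted, so these fibroblast counts stand without that background. Pdgfra, between 0.44 and 0.94, and Dcn, between -2.42 and 0.75, were the highest, and Lum, between -5.39 and -1.63, and Thy1, between -2.68 and -1.40, the lowest. The 8 pericyte genes had medians between -0.06 and 0.28, and their sum ran from 2458 to 7250 in PT and from 2123 to 7288 in Lung met. Cox4i2, between 0.99 and 4.19, and Higd1b, between 0.40 and 2.42, were the highest, and Rgs5, between -0.77 and -0.01, and Notch3, between -0.49 and 0.05, the lowest. Of 8 leukocyte genes, 6 or 7 had values, and 0 to 3 were at least 2-fold higher. Their medians ran from 0.06 in Her2 to 0.96 in the comparison deposited as AKR and their sum from 1354 to 6038 in PT and from 1644 to 9823 in Lung met. Itgb2, between 0.72 and 1.76, and Cd3e, between 0.09 and 1.37 in 4 tables, were the highest, and Csf1r, between -0.40 and 0.26, and Laptm5, between 0.04 and 0.79, the lowest. Platelet genes, of which 1 to 4 of 8 had values, summed to between 16.3 and 221 in PT and between 15.9 and 519.6 in Lung met. At least 2-fold higher were 1 of 3 in Her2, 3 of 4 in C3Tag, 0 of 1 in BALB, 0 of 2 in SEAGN and 1 of 3 in the comparison deposited as AKR, and the medians were -0.08, 2.42, -0.04, -0.67 and 0.85. Ppbp lay between 1.03 and 4.02 in 3 tables, Gp1bb at 2.62 in the 1 table that lists it, Itga2b between -0.40 and 0.60, and Pf4 between -1.11 in Her2 and 2.22 in C3Tag. Pecam1 and Esam, which platelets also carry, are thus read beside platelet genes that were higher in C3Tag and in the comparison deposited as AKR. The 8 tumor epithelium genes had medians between -0.02 and 0.13. Krt19, between 0.35 and 3.81 in 4 tables, and Elf3, between 0.06 and 0.58, were the highest, and Epcam, between -0.68 and 0.05, and Ehf, between -0.33 and 0.20, the lowest.

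**Figure D5:**
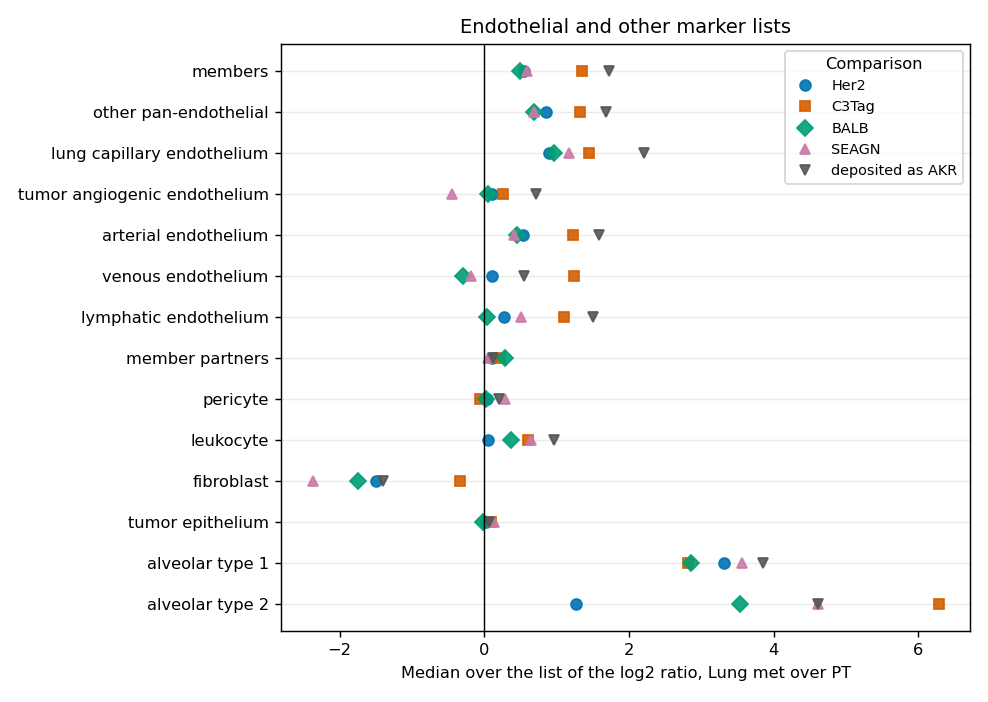
Median log2 ratio, Lung met over PT, of each gene list (rows) in each of the 5 comparisons (symbols); the vertical line is 0. The members and the other pan-endothelial genes lie between 0.50 and 1.73, alveolar lists reach 6.29, and the fibroblast list lies below 0 throughout.

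The profile of a gene over the 5 comparisons was set beside the members' median profile, among 11786 genes that occurred once in every table with a mean of at least 10. The nearest was Nbl1, a secreted BMP antagonist, with a root mean square difference of 0.045 log2 units. It was followed by Cnr2 (0.129), a cannabinoid receptor of immune cells, Samsn1 (0.150), an adaptor of hematopoietic cells, Ecscr (0.152), an endothelial cell surface protein, and Tmem116 (0.158). Likeness over 5 ratios is a description, and only Ecscr of these was in an endothelial list.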

How the data were processed

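RNA from PT and Lung met tissue was sequenced as bulk libraries. The authors aligned reads, counted and normalized genes in Partek Flow, and deposited 1 table per model, in which the signal of each tissue is a least-squares mean of normalized counts over all samples of that tissue. The scale of the normalization is not given in the sources used here, nor is depth per sample, so no counting interval could be given. The authors obtained the means from Gene Specific Analysis for Her2 and C3Tag and from DESeq2 for the PyMT-F1 crosses. Submitters' processing notes name STAR 2.7.8a and mm39, whereas the study's methods name mm10 for RNA-seq in one paragraph and mm9 in another. The submitters' labels name a stranded total RNA kit with ribosomal depletion and the methods name mRNA libraries.

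Of 6 tables, 5 were used. The deposited tables also hold the authors' fold changes, p-values and false discovery rates, which were not used, and the Myc table, which holds only those, was not used here. Tissue and cross were taken from sample titles, because for PyMT-F1 samples the labels for source and genotype conflict with the titles. Rows without both means were left out (0 in Her2, 1 in C3Tag, 93 in BALB, 53 in SEAGN, 116 in the table deposited as AKR). The log2 ratio of Lung met over PT means was computed with no pseudocount (Python 3.11.15, pandas 2.3.3), and a gene was counted as higher at a ratio of 2 or more. These steps were tested on simulated data. Exonic length was the union of exons in GENCODE M21. All members were described in every table; of other lists, the counts and the 2 highest and 2 lowest genes by their mean over the tables; and the 5 genes nearest to the members' median profile. The members and the lists were chosen with earlier results of these data known. Alternatives were a fold of 1.5, a pseudocount of 1, a mean of at least 10, centring on the median of all genes or of genes with a mean of at least 100, the median without Emcn and Robo4, and the other pan-endothelial list as the reference for departures.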

Additional observations from a re-analysis of the deposited data

How the results depend on the processing

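No paired analysis was possible because the tables hold 1 mean per tissue, and for the same reason no replicate could be left out and no error is known; a log2 value was read as moved past a shift of 0.1 and a count past 1.5 times. With a fold of 1.5, the members counted as higher were 4 in place of 1 in Her2, 3 in place of 1 in BALB and 5 in place of 2 in SEAGN, by construction of the lower threshold, beside 5.42%, 6.2% and 7.11% of all genes at that fold. Without Emcn and Robo4 the median log2 ratio was 1.46 in place of 1.35 in C3Tag and 1.84 in place of 1.73 in the comparison deposited as AKR. Both genes lay below the members' median there, so by construction leaving them out could not lower it. Against the median of the 28 other pan-endothelial genes, the lowest departure was -0.64 in Her2, -0.66 in C3Tag, -0.91 in BALB and -0.82 in the comparison deposited as AKR (in place of -0.34, -0.79, -0.77 and -0.96), and the highest was 0.35 in Her2, 1.03 in BALB and 1.34 in SEAGN (in place of 0.66, 1.27 and 1.47), with 8 of 50 departures changing from above to below 0 (Emcn, Pecam1, Plvap and Epas1 in Her2, Esam and Tie1 in BALB, Pecam1 and Tie1 in SEAGN); the reference itself differs by construction. A pseudocount of 1 and both centrings shifted the 50 member ratios by at most 0.058 and changed the sign of none. Depth and the number of reads behind each mean are unknown, which limits what can be said of low genes such as Cldn5 in PT.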

Other observations

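Arterial, venous and lymphatic endothelial genes differed among themselves between Lung met and PT, as group means with no test. Of 8 arterial genes, 7 or 8 had values, and the median log2 ratio was 0.53 in Her2, 1.22 in C3Tag, 0.45 in BALB, 0.41 in SEAGN and 1.59 in the comparison deposited as AKR. Gja5, connexin 40 of arterial endothelium, was the highest, at 1.77, 1.98, 1.87, 2.42 and 3.32, followed by Sema3g, a semaphorin of arterial endothelium, between 0.53 and 2.74. Hey1, a Notch target, and Jag1, a Notch ligand, were the lowest, between -0.40 and 0.26 and between -0.94 and 0.74.

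Of 7 venous genes, 6 or 7 had values, and the median was 0.10 in Her2, 1.24 in C3Tag, -0.30 in BALB, -0.19 in SEAGN and 0.55 in the comparison deposited as AKR, below 0 in the same 2 comparisons in which Emcn and Robo4 were lower in Lung met. Nrp2, a semaphorin and VEGF-C receptor, was the highest, between 0.39 and 1.13, followed by Nr2f2, the COUP-TFII factor of venous identity, between -0.07 and 1.51. Ackr1, a chemokine-binding receptor of venules, was at -0.84 in the 1 table that lists it, and Ephb4, the venous ephrin receptor, lay between -0.30 and 0.11.

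Of 7 lymphatic genes, 5 to 7 had values, with medians of 0.28, 1.10, 0.04, 0.51 and 1.496 in the same order. Lyve1, a hyaluronan receptor of lymphatic endothelium and some macrophages, was at 1.88, 2.84, 1.77, 1.77 and 3.48, and Ccl21a, a chemokine, at 3.67 in the 1 table that lists it. Prox1, the lymphatic master factor, was at -0.07, 1.05, -0.41, -0.65 and -0.73, and Reln lay between -1.23 and 0.83 in 4 tables.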
